A study of Mus musculus with 23 samples.

Results

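Single haematopoietic stem cells (HSC) sorted from mouse bone marrow were compared cell by cell within a library, to describe which transcripts differed between them at equal depth. The cells are those columns of the libraries labelled as sorted HSC that held at least 1000 transcripts, 245 of the 952 such cells in the series. They had been sorted as Lineage-, Kit+, Sca1+, CD150+ and CD48- cells. The other 707 cells had been micro-dissected by hand from small clumps of attached marrow cells, and are a mixture of marrow cell types. Transcripts were measured by CEL-seq, in which the mRNA of each cell receives a barcode of that cell and a random tag, so that amplified copies of a molecule count once. The labels state no strain, age, sex, genotype or treatment, so no allele or agent is known to separate the groups or to be shared by them.

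Of the 5 sorted libraries, replicate 2 was not analysed here and replicate 1 held 2 cells above the minimum. The values therefore come from 243 cells, 91 in replicate 3, 72 in replicate 4 and 80 in replicate 5, whose medians were 2324, 1476 and 1869 transcripts per cell. The 15 micro-dissected libraries used beside them held 670 cells, and their summed depth ran from 21085 to 313488 transcripts, against 238770, 117099 and 180336 in the sorted libraries. Each cell was thinned at random to 1000 tags, so that no cell had more counts than another. The labels name no animals, and sorted replicates 3 to 5 share a name stem, so they could be plates of 1 sort, and a p-value here reflects differences among libraries that could be technical only. Sorted libraries were run on a HiSeq2500 or a NextSeq500 and dissected ones on a NextSeq500, so instrument and cell type cannot be told apart.

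HSC renew themselves and give rise to all blood lineages, and in adult marrow most of them rest outside the cell cycle. A cell that enters the cycle raises the genes that copy DNA and then those that build the mitotic spindle. Resting HSC are known for cycle inhibitors, for transcription factors such as Hlf and Mecom, and for a steady level of interferon-induced and antigen presentation genes, and some HSC carry transcripts of the platelet-forming megakaryocyte line.

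The sorted cells carried the 6 stem cell markers. Gpr56, an adhesion receptor named Adgrg1 in newer annotation, had a tag in 89.0% of cells of replicate 3, 93.1% of replicate 4 and 82.5% of replicate 5. Ifitm1, an interferon-induced membrane protein, had a tag in 76.9%, 75.0% and 52.5% of cells of replicates 3, 4 and 5. Hlf, a transcription factor of stem cells, was found in 53.8%, 29.2% and 57.5%, and Kit, the receptor for stem cell factor, in 40.7%, 23.6% and 50.0%. Mecom, a zinc finger transcription factor, was found in 11%, 9.72% and 13.8%, and Procr, the endothelial protein C receptor, in 9.89%, 18.1% and 3.75%. Gpr56 was the most frequent of the 6 in each library, and replicate 4 had the lowest shares of Hlf and Kit. In dissected cells with transcripts of other lineages the shares were lower. In 190 with erythroid transcripts (median 1794 transcripts before thinning) they ran from 0.0% to 4.74%, and in 289 with neutrophil-line transcripts (median 2762) from 0.0% to 5.54%. The neutrophil-line class was defined with promyelocyte genes as well, so these classes are a comparison and are not known to lack every marker. Kit gave the 5.54%, and Mecom and Procr were at 0 in both classes, which allows up to 1.92% and 1.27% of cells (exact binomial, 95%, counting error only). Without thinning, Gpr56 was found in 98.9%, 95.8% and 93.8% of sorted cells and Hlf in 74.7%, 45.8% and 75.0%, against 8.06% and 0.948% of erythroid and 4.01% and 4.01% of neutrophil-line cells. Kit was then found in 70.3%, 27.8% and 78.8% of sorted cells, against 16.7% of neutrophil-line cells.

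Most markers of other marrow cells were scarce in sorted HSC. The eosinophil and mast or basophil lists were at 0 in every sorted cell. The 13 neutrophil genes summed to a mean of 0.312 to 0.374 tags per sorted cell, against 17.3 to 134.8 in dissected libraries, and 7 of them, Ltf and Lcn2 included, were at 0. Cxcr2 gave nearly all of the sum in sorted cells, with 79 tags. It averaged 0.326 tags per cell in sorted HSC and 0.422 in dissected cells, so it was not scarce by comparison. The 20 erythroblast genes summed to 0.444 to 1.35 tags per sorted cell, against 1.90 to 36.9 in dissected libraries, and 12 of them, Alas2 and Klf1 included, were at 0. Nearly all of that sum was Car2, carbonic anhydrase, with 248 tags over the sorted cells, and 5 cells of replicate 3 held 5 or more. The 10 promyelocyte genes summed to 0.653 to 1.10 tags per sorted cell, against 1.35 to 9.35 in dissected libraries. Of these, Srgn, a secretory granule proteoglycan, gave 167 tags and Prtn3 gave 34, while Mpo and Elane were at 0. Srgn averaged 0.673 tags per cell in sorted HSC and 0.689 in dissected cells, so it too was not scarce by comparison. No sorted cell held 5 or more tags of the B cell, plasma cell, T and NK cell, monocyte and dendritic, macrophage or stromal lists.

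Most genes differed between sorted HSC little more than counting allows. Variability was measured as the variance of a gene's tags over the cells of a library divided by their mean, a ratio that is 1 when counting error alone acts. At a low mean the ratio stays close to 1 even where the true level differs between cells. A value near 1 therefore does not show that cells are uniform. The 425 genes with a mean of at least 0.2 tags and at least 5 cells with a tag in each sorted library had a median ratio of 1.03 in replicate 3, 1.04 in replicate 4 and 1.04 in replicate 5. In the single libraries 57.6%, 61.4% and 60.9% of these genes were above 1. A total of 97 genes, 22.8%, were above 1 in all 3 libraries, 29 were below 1 in all 3, and 8 were above 1.2 in all 3. Tuba1b and the predicted gene Gm17821, which was outside the naming rule and was named after its values were seen, were above 1.5 in all 3 libraries.

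**Figure D1:**
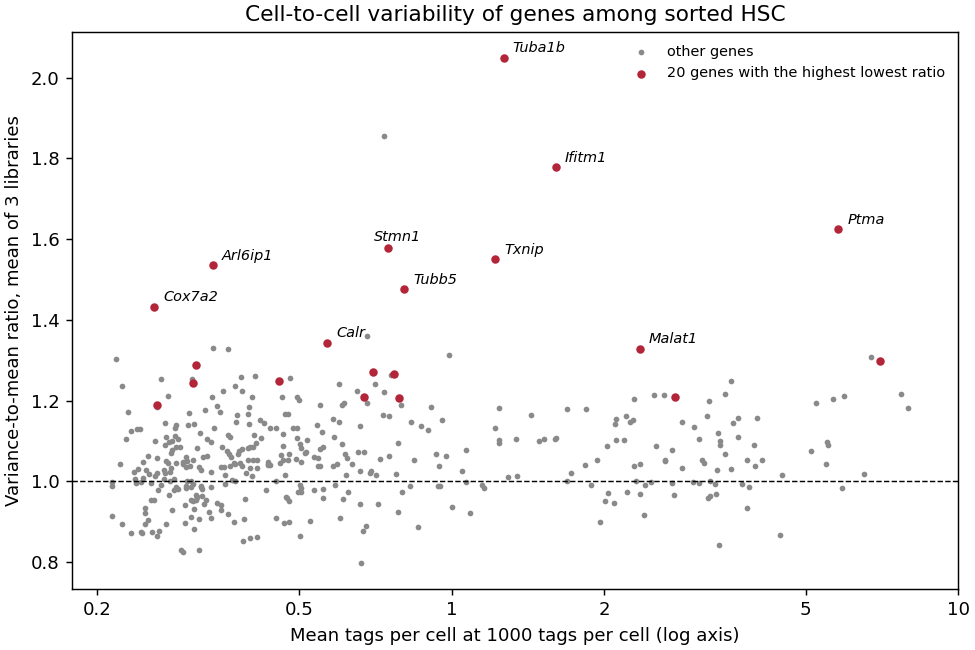
Each point is 1 of the 425 genes, placed by its mean tags per cell (log axis) and its variance-to-mean ratio, both as the mean of the 3 sorted libraries; the dashed line marks a ratio of 1. Red points are the 20 named genes, with Tuba1b at 2.05 and Ptma at 1.63, while most genes lie close to the line at every level.

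In the single thinning used, the 7 named genes above 1.2 in every library were Tuba1b, Ptma, Tubb5, Txnip, Ifitm1, Stmn1 and Calr. Tuba1b (chr15:98931425-98934565, minus strand of GRCm38), an alpha-tubulin of the spindle and cytoskeleton, had ratios of 1.6, 1.61 and 2.94 in replicates 3, 4 and 5. Its mean was 1.07, 1.47 and 1.26 tags per cell, with 5, 7 and 9 tags in the highest cell and none in many: 54.9%, 69.4% and 50.0% of cells held a tag. Tubb5 (chr17:35833921-35838306, minus), a beta-tubulin that pairs with it, had ratios of 1.5, 1.55 and 1.37, and its highest cells held 4, 6 and 5 tags. Both tubulins thus had no tag in many sorted cells of each library, which at these means does not show absence of the transcript, and had several-fold the mean in a few.

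Ptma (chr1:86526726-86530712, plus), which encodes prothymosin alpha, an acidic nuclear protein of growing cells, was found in nearly every sorted cell. It had 1 to 12 tags in replicate 3 with a median of 4, 0 to 14 in replicate 4 with a median of 7, and 0 to 15 in replicate 5 with a median of 5.5, and ratios of 1.53, 1.45 and 1.90. Stmn1 (chr4:134468320-134473843, plus), which destabilises microtubules, had ratios of 1.29, 1.70 and 1.74 and was found in 37.4%, 47.2% and 45.0% of cells. At the lower level of Stmn1, with means of 0.539, 0.889 and 0.825 tags, a cell without a tag may still hold the transcript.

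Txnip (chr3:96557957-96561883, plus), a thioredoxin inhibitor that also restrains glucose uptake and proliferation, had ratios of 1.36, 1.35 and 1.94. Its means were 1.67, 0.806 and 1.19 tags, and 72.5%, 47.2% and 56.2% of cells held a tag. Ifitm1 (chr7:140967221-140969825, plus) had ratios of 1.3, 2.07 and 1.96, with highest cells at 6, 9 and 9 tags against means of 1.71, 2.07 and 1.04. Hlf (chr11:90336536-90390895, minus) was the other stem cell marker among the 20, with ratios of 1.29, 1.35 and 1.17, and its highest cells held 5, 3 and 4 tags. Gpr56 and Kit were above 1 in replicates 3 and 5 and below it in replicate 4, at 1.26, 0.823 and 1.38 for Gpr56 and 1.26, 0.873 and 1.11 for Kit.

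**Figure D2:**
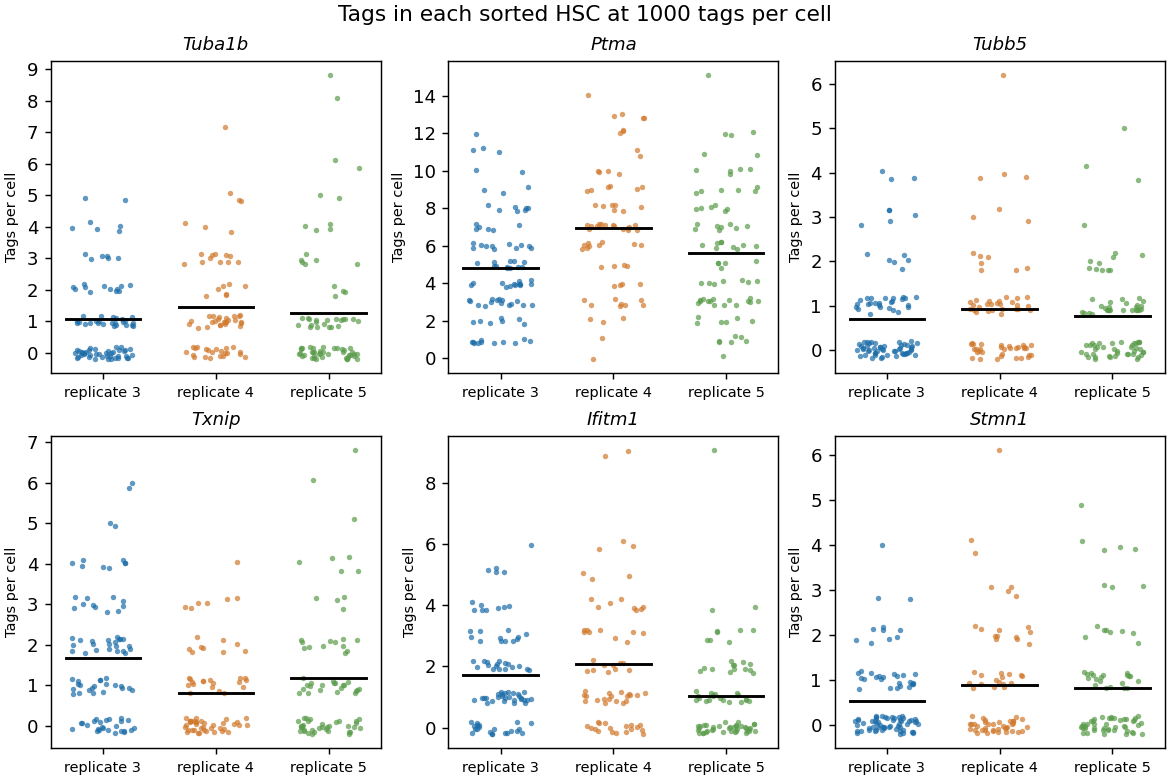
Tags of 6 genes in each sorted HSC at 1000 tags per cell, one point per cell (moved slightly apart), in replicates 3, 4 and 5, with the mean of the library as a line. Tuba1b, Tubb5, Txnip, Ifitm1 and Stmn1 have many cells at 0 and single cells at 4 to 9 tags, and Ptma spreads from 0 or 1 up to 12 to 15.

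The other named genes ranked lower by their lowest ratio over the 3 libraries. Calr, an endoplasmic reticulum chaperone, had ratios of 1.33, 1.47 and 1.24, and H2afz, a histone variant, 1.17, 1.25 and 1.2. Cox7a2, a subunit of cytochrome oxidase, had 1.49, 1.61 and 1.2 at means of 0.208 to 0.330 tags per cell. Arl6ip1, a protein that shapes the endoplasmic reticulum, had 1.16, 1.25 and 2.19, the last with 7 tags in 1 cell of replicate 5. Malat1, a nuclear noncoding RNA, had 1.32, 1.13 and 1.53, Actb, beta-actin, 1.15, 1.15 and 1.33, and Eef1a1, the translation elongation factor, 1.13, 1.53 and 1.23. Ccnd2, a cyclin that drives entry into the cycle, had 1.24, 1.41 and 1.16, and Ssrp1, a histone chaperone, 1.24, 1.3 and 1.2. Ly6e, Rapgef4, Ybx3 and Ywhae completed the 20, and their lowest ratios ran from 1.14 to 1.18.

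At the other end were ribosomal proteins. Rpl14, Rps16, Rps7 and Rpl11, all parts of the ribosome, were among the 5 least variable genes with a mean of at least 1 tag. Rps7 had ratios of 0.764, 0.741 and 1.02 at means of 3.65, 3.46 and 3.03 tags, and Rps16 had 0.800, 0.825 and 0.976 at means of 4.65, 5.46 and 3.26 tags. These genes were chosen as the lowest of many, and the values were not tested against 1.

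The order of the 20 genes was less certain than its head. In another random thinning 9 of them were again among the first 20, and in the mean of 20 thinnings 11 were. Tuba1b, Ifitm1, Ptma, Tubb5, Stmn1, H2afz and Txnip led that mean in this order, with Tuba1b at 2.01, 1.85 and 2.25 and H2afz at 1.65, 1.33 and 1.51. Calr was below 1.2 in each library of that mean, at 1.137, 1.088 and 1.195, and Cox7a2 had 1.256, 1.26 and 1.03. Neither was among its first 20. Over 10 other settings Tubb5 was among the first 20 in 10, Tuba1b, Ptma, Txnip and Ifitm1 in 9 and Stmn1 in 7, whereas Ybx3 and Ywhae were in 0. The 20 genes with the highest ratio in 1 library had a median of 1.51, 1.58 or 1.54 there and of 1.01 to 1.19 in the other libraries, so most of the height of a single-library ratio did not recur.

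Genes that are high in the same cells show up in the sum of a list more than singly. For each list the variance of the list's tags over cells was divided by the summed variances of its genes, which gives 1 when the genes vary independently. Of 18 lists, 4 were above 1.5 in every sorted library: DNA replication, mitosis, antigen presentation and interferon (MHC and interferon), and the small ribosomal subunit. The 29 replication genes gave 3.44, 3.34 and 3.40 in replicates 3, 4 and 5, and the 35 mitosis genes 3.50, 2.79 and 4.54. In the 15 dissected libraries the values were 2.18, 4.09 and 5.55 for replication and 3.67, 6.10 and 8.18 for mitosis, as the lowest, median and highest.

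**Figure D3:**
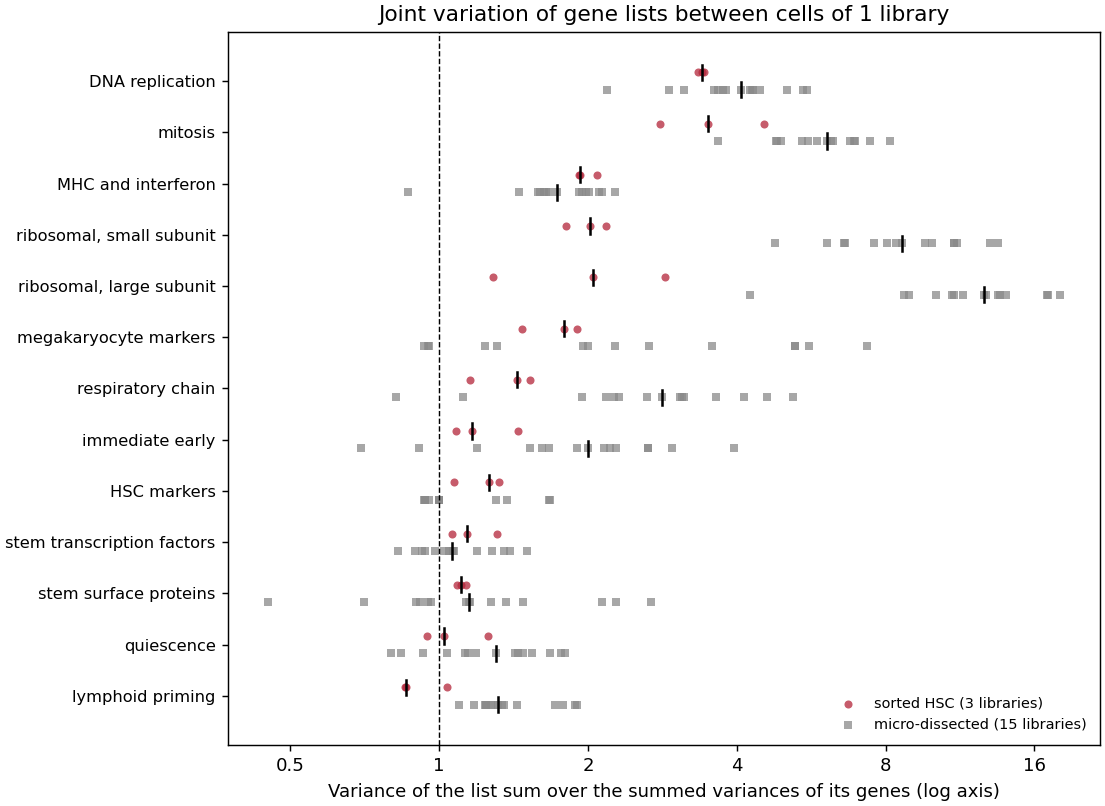
Variance of a list's summed tags over the summed variances of its genes (log axis) in each of 3 sorted HSC libraries (red circles) and 15 micro-dissected libraries (grey squares below them). Black ticks are medians, and the dashed line marks 1, the value of independent variation for a list with a small share of the tags. The replication and mitosis lists of sorted HSC lie between 2.79 and 4.54, and the stem cell transcription factor, surface and lymphoid lists lie between 0.854 and 1.31.

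Replication transcripts were unevenly spread over sorted cells. The replication list summed to a median of 1, 2 and 2 tags per cell in replicates 3, 4 and 5, but to 16, 17 and 18 tags in the highest cell, and was at 0 in 21, 14 and 10 cells. The tenth of cells with the most tags held 40.2%, 35.7% and 35.5% of the list's tags, against 25.7% to 46.1% in dissected libraries. Its most abundant members were Dut, which keeps uracil out of DNA, Pcna, the sliding clamp of DNA polymerase, Dnmt1, which copies DNA methylation, and Mcm6, of the replicative helicase. Dut averaged 0.341, 0.278 and 0.287 tags per cell, Pcna 0.308, 0.194 and 0.375, Dnmt1 0.231, 0.264 and 0.362, and Mcm6 0.242, 0.194 and 0.362. None of these 4 had a ratio above 1 in all 3 libraries.

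Mitosis transcripts were also unevenly spread. The mitosis list summed to a median of 4 tags in each library and to 30, 21 and 39 tags in the highest cell, and 8, 11 and 11 cells held 10 or more. The tenth of cells with the most tags held 35.6%, 32.5% and 38.5% of the list's tags, against 20.8% to 33.4% in dissected libraries. The list's mean sum was higher there, at 12.2 to 28.1 tags against 5.09 to 6.16, so the shares are not at equal level. Tuba1b, Tubb5, H2afz and Stmn1 were the most abundant members, and these also serve cells outside mitosis. Without its tubulins the list still gave 3.44, 2.24 and 4.39. Genes that mark dividing cells were rare: Top2a, which untangles chromosomes, had tags in 3, 5 and 10 cells of replicates 3, 4 and 5, and Mki67 in 3, 6 and 1.

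Replication and mitosis sums ran together, with r = 0.340, 0.489 and 0.337 over the 91, 72 and 80 cells of replicates 3, 4 and 5. These correlations, like all below, are over cells that share a library and a fixed total, so they are descriptions. At the top the pairing differed between libraries. The cell with the highest mitosis sum of replicate 3 held 30 mitosis tags and 0 replication tags, and that of replicate 5 held 39 and 2. In replicate 4, where the list's median was 2 replication tags, the pair of cells with 21 mitosis tags held 4 and 8 replication tags. The cells with the highest replication sums held 16 replication and 9 mitosis tags in replicate 3, 17 and 6 in replicate 4, and 18 and 9 in replicate 5.

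**Figure D4:**
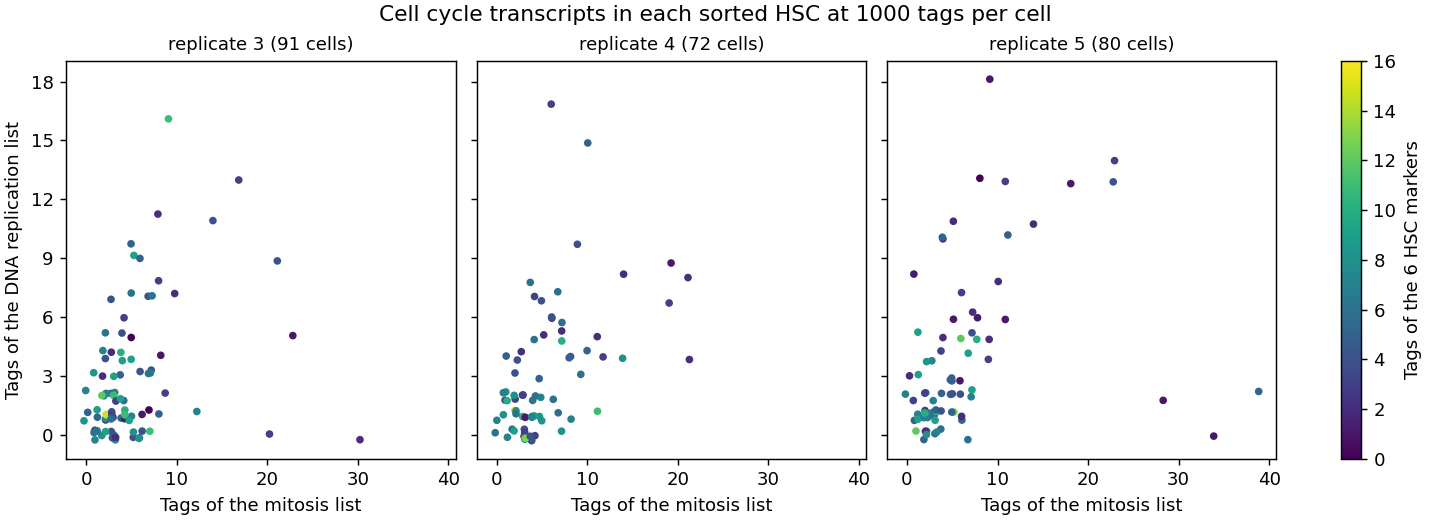
Summed tags of the mitosis list (x axis) and of the DNA replication list (y axis) in each sorted HSC at 1000 tags per cell, one panel per library, coloured by the summed tags of the 6 stem cell markers. Most cells lie near the origin, a few reach 16 to 18 replication tags or 21 to 39 mitosis tags, and those cells held 1 to 5 stem cell marker tags, except 1 cell of replicate 3 with 11.

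The promoters of 4 cycle genes are shown because their lists varied jointly. Each is 250 bases before to 50 after the gene's start from RefSeq on GRCm38.p6, 5′ to 3′ on the gene's strand, all 4 on the minus strand: Tuba1b at chr15:98934341-98934640, Tubb5 at chr17:35838252-35838551, Top2a at chr11:99024140-99024439 and Mcm6 at chr1:128359656-128359955. Capitals mark every match, on either strand, to CCAAT, the box bound by NF-Y, to TTTGAA, the core of the element known from late cell cycle genes, to TTTGGCG, a form of the E2F site, and to CACGTG, the E-box.
Tuba1b: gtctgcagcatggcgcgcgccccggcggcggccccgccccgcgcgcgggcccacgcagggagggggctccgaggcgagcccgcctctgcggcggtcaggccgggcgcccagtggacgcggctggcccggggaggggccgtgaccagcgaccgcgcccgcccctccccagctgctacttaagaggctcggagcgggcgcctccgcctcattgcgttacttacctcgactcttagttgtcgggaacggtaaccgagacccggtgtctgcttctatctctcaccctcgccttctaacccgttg
Tubb5: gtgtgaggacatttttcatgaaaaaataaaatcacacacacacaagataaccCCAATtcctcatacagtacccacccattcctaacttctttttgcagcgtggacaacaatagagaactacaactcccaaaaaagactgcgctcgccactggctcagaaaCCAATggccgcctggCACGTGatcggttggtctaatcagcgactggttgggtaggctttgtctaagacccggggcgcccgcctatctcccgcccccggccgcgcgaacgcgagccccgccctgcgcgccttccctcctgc
Top2a: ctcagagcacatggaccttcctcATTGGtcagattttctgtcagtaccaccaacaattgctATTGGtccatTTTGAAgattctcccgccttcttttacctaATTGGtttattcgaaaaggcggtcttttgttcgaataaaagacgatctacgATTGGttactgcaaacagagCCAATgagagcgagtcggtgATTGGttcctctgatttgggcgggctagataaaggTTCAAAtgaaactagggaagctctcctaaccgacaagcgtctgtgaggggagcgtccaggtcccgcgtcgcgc
Mcm6: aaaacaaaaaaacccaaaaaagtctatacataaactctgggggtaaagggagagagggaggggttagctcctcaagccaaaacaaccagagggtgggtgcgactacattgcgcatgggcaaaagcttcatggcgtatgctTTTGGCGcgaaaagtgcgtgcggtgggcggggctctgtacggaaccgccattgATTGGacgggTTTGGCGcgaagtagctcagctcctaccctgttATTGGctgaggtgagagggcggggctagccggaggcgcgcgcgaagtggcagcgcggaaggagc
Top2a held 6 matches to CCAAT and 2 to TTTGAA, Tubb5 held 2 to CCAAT and 1 to CACGTG, and Mcm6 held 2 to CCAAT and 2 to TTTGGCG. In Tuba1b none of the 4 motifs was in the window. Its GENCODE start on the minus strand, at 98934565, lies inside this RefSeq window, so fewer than 250 bases before that start were searched. Of 27025 promoters of this length 37.9% held CCAAT, 18.1% TTTGAA, 1.59% TTTGGCG and 7.24% CACGTG. Of the 28 mitosis genes with a RefSeq promoter, 85.7% held CCAAT and 64.3% TTTGAA, while 3.57% held TTTGGCG. Of the 24 replication genes 54.2% held CCAAT, 12.5% TTTGAA, 12.5% TTTGGCG and 8.33% CACGTG. The motifs and promoters were chosen after the lists' values were seen, and a match is a description.

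The antigen presentation and interferon list was present in every sorted cell and varied in amount. Its 30 genes summed to 3 to 30 tags in replicate 3, 4 to 27 in replicate 4 and 5 to 36 in replicate 5, with means of 13.6, 12 and 11.6 and joint ratios of 1.93, 1.92 and 2.09. The dissected libraries gave 0.866, 1.73 and 2.27 as the lowest, median and highest, so the groups overlapped. B2m, the light chain of MHC class I, averaged 3.44, 1.83 and 3.27 tags with ratios of 1.03, 1.29 and 1.11. H2-K1 and H2-D1, class I heavy chains, had ratios of 1.25, 0.910 and 0.814 and of 0.958, 0.930 and 1.14. Without Ifitm1, Ifitm2 and Ifitm3 the joint ratio was 1.64, 1.83 and 2.0. In cells of at least 2000 transcripts it was 1.04 to 1.66 with all genes.

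Antigen presentation and replication ran opposite to each other, with r = -0.303, -0.414 and -0.229 in replicates 3, 4 and 5. The mitosis sum ran opposite to the 6 stem cell markers, with r = -0.315, -0.346 and -0.315, and to the cycle inhibitor and quiescence list, with r = -0.227, -0.251 and -0.322. The quiescence list ran with the stem cell markers, at 0.257, 0.292 and 0.323, a pair that shares Gpr56, here counted in the quiescence list only. The quiescence list averaged 4.10 to 4.96 tags per sorted cell over the libraries, most of them from Gpr56, with a mean of 2.28, and Txnip, with 1.22. Gpr56 also gave the most tags of the 6 markers, 553. Correlations of another list with quiescence and with the markers are therefore not independent, and say little of the other cycle inhibitors. Nuclear genes of the respiratory chain ran with replication, at 0.304, 0.354 and 0.260, and opposite to the stem cell markers, at -0.308, -0.426 and -0.243, and to quiescence, at -0.231, -0.265 and -0.224. These 8 of the 45 pairs of lists had a correlation of at least 0.2 in size and of 1 sign in every sorted library.

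The depth of a cell moved with these sums even at a fixed 1000 tags. The correlation with the log of a cell's transcripts before thinning was 0.402, 0.411 and 0.418 for replication and 0.456, 0.537 and 0.471 for mitosis in replicates 3, 4 and 5. It was -0.332, -0.311 and -0.246 for antigen presentation and interferon, -0.401, -0.337 and -0.478 for quiescence, and -0.340, -0.329 and -0.364 for the stem cell markers. Cells with more captured transcripts thus held a larger share of cycle transcripts and a smaller share of stem cell markers. With log depth removed from every gene, the joint ratios were 2.93 to 3.07 for replication, 2.26 to 3.96 for mitosis and 1.77 to 2.04 for antigen presentation and interferon. The same 8 pairs then kept their signs, but none of them reached 0.2 in size in every library: replication and mitosis at 0.192, 0.349 and 0.175, mitosis and stem cell markers at -0.191, -0.212 and -0.175, and mitosis and quiescence at -0.0543, -0.0888 and -0.125. RNA content and capture of a cell cannot be told apart in depth.

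Correlations between single genes in part restated those of the lists. Tuba1b, Tubb5, Stmn1 and H2afz are members of the mitosis list and Dut of the replication list. Of 409 genes, those most like Tuba1b over cells were Ptma, with r = 0.355, 0.464 and 0.337, Tubb5, with 0.515, 0.323 and 0.457, and Dut, with 0.408, 0.481 and 0.232. H2afz was the gene most like Stmn1, at 0.398, 0.356 and 0.332, followed by Dut, at 0.258, 0.453 and 0.250. Pdzk1ip1, a small membrane protein, was most like Txnip, at 0.234, 0.322 and 0.433, and Ifitm1 came next, at 0.264, 0.241 and 0.178. Ifitm3, a neighbour of Ifitm1 in family, was second to Txnip for Ifitm1, at 0.276, 0.142 and 0.190, and H2afz was its most opposite gene, at -0.306, -0.201 and -0.212. Txnip was the gene most opposite to Tubb5, at -0.218, -0.224 and -0.159.

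Stem cell regulators showed less joint variation than the cycle lists at the minimum of 1000 transcripts. The 26 stem cell transcription factors gave joint ratios of 1.06, 1.14 and 1.31, against a median of 1.06 in dissected libraries, although the list summed to 7.92, 5.53 and 9.05 tags per sorted cell. Lmo2, a bridging factor of blood transcription complexes, averaged 1.47, 0.917 and 1.32 tags, Zfp36l2, an RNA-binding protein that shortens mRNA life, 1.01, 0.431 and 1.35, and Myb, a progenitor transcription factor, 0.484, 0.542 and 0.725. The surface protein list gave 1.11, 1.14 and 1.09, the quiescence list 1.25, 0.944 and 1.03 and the 6 stem cell markers 1.26, 1.07 and 1.32. In cells of at least 2000 transcripts the transcription factors gave 1.01 to 2.01, the surface list 1.12 to 1.86 and the markers 1.28 to 1.75. The 14 lymphoid priming genes gave 0.854, 0.856 and 1.04 and summed to 0.550 to 0.688 tags per cell, mostly from Lsp1, Cd27 and Mef2c. Immediate early genes gave 1.45, 1.08 and 1.16 and respiratory chain genes 1.44, 1.15 and 1.52, against dissected medians of 2.0 and 2.82. Chaperone, glycolysis, actin, adhesion receptor and Gimap, and histone lists lay between 0.937 and 1.31 in all sorted libraries.

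Ribosomal genes varied jointly. The small subunit list gave joint ratios of 1.81, 2.18 and 2.02 and the large one 2.05, 2.87 and 1.29, against dissected medians of 8.64 and 12.7. Together the 77 ribosomal genes took a mean of 239.8, 298.0 and 183.7 of the 1000 tags of a cell, with ranges of 180 to 310, 220 to 400 and 141 to 229. The mean of replicate 4 lay above the highest cell of replicate 5, so libraries under the same label differed widely in this share.

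Megakaryocyte transcripts were at 0 in most cells and high in a few. The 12 markers summed to 0 in 65, 40 and 46 cells of replicates 3, 4 and 5, and to 7, 13 and 9 tags in the highest cell. The joint ratios were 1.90, 1.47 and 1.79, but 0.943 to 1.56 with the highest cell left out. A total of 1, 2 and 3 cells held 5 or more tags, a number chosen after the values were seen. They held 7 of 36, 19 of 56 and 21 of 65 of the list's tags. Pf4, platelet factor 4, gave 11 of its 17 tags in replicate 4 and 7 of 13 in replicate 5 in those cells, and 1 of 7 in replicate 3. Itga2b, the platelet integrin, had 24 tags over all sorted cells, and Gp6 was at 0. The stem cell markers in those cells were at 0 tags in replicate 3, 2 to 4 in replicate 4 and 1 to 5 in replicate 5, while the medians of the other cells were 5.5, 6 and 5. Their median transcripts before thinning were 2061, 2617 and 5376, against 2324, 1476 and 1869 over all cells of the libraries.

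Averaged over libraries, sorted HSC were more alike and held more genes than dissected marrow cells. Single cells overlapped, and so did the library values of the correlation and of the SD of log2 transcripts. At 1000 tags a sorted cell held a median of 705, 655.5 and 742 genes in replicates 3, 4 and 5, a mean of 700.8 ± 43.4 (SD, n = 3), against 603.0 ± 19.2 (SD, n = 15) and 574 to 638.5 in dissected libraries. The difference of 97.9 genes had an adjusted p of 0.00245 in an exact permutation test over libraries (2-sided, 816 splits, smallest possible p 0.00123, Benjamini-Hochberg over 4 values), and the library medians did not overlap, although single sorted cells of replicate 4 went down to 566 genes and single dissected cells of replicate 17 up to 738. The median correlation between cells of a library was 0.378, 0.434 and 0.316 in sorted HSC, against 0.209 to 0.346 in dissected libraries, a difference of 0.120 with an adjusted p of 0.00327 in the same exact test. The median variance-to-mean ratio over genes of at least 0.5 tags was 1.07 in each sorted library, against 1.3 to 1.87 in dissected libraries, a difference of -0.587 with an adjusted p of 0.00245 in the exact test. The SD of log2 transcripts per cell was 0.550, 0.432 and 0.633 in sorted HSC, against 0.904 ± 0.217 (SD, n = 15) in dissected libraries, and differed by -0.366 with an adjusted p of 0.0123 in the exact test, or 0.0735 without replicate 4.

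**Figure D5:**
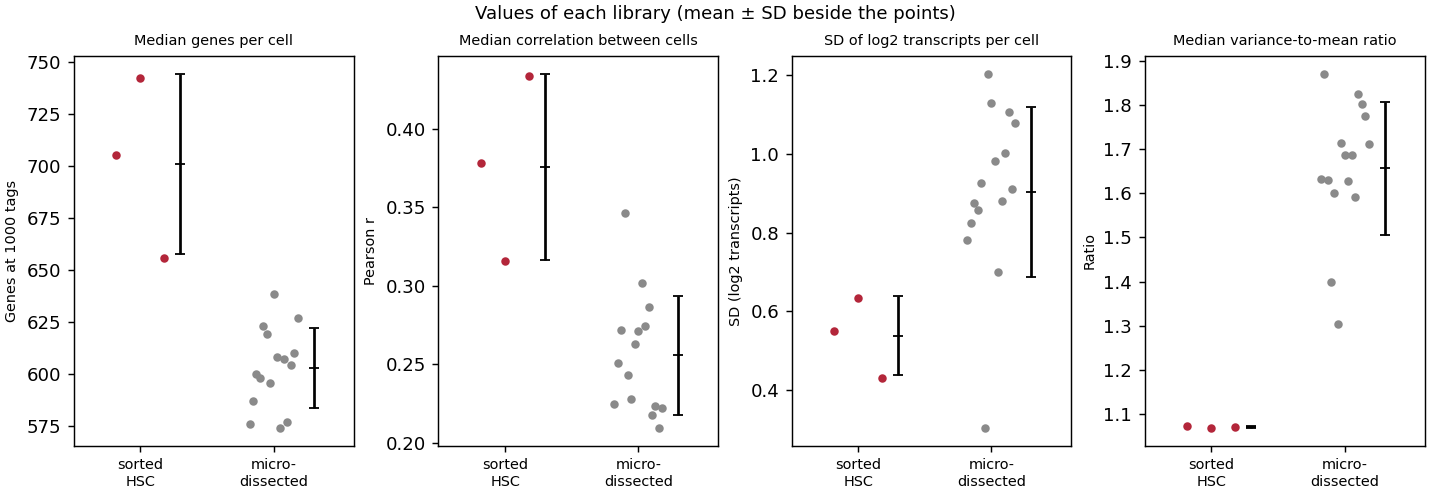
One point per library for 3 sorted HSC and 15 micro-dissected libraries, with the mean and SD as bars: median genes per cell at 1000 tags, median Pearson correlation between cells, SD of log2 transcripts per cell and median variance-to-mean ratio. Genes per cell (655.5 to 742 against 574 to 638.5) and the ratio (1.07 against 1.3 to 1.87) do not overlap between the groups.

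The dissected cells are a mixture of types, so a more uniform set of them was also used. Against the 9 dissected libraries reduced to cells with erythroid transcripts, a comparison added after seeing the data, sorted HSC still held 112.4 more genes and a ratio lower by 0.231, each with an adjusted p of 0.00909 in the exact permutation test. The correlation between cells then differed by 0.0358 with an adjusted p of 0.261, and the SD of log2 transcripts by -0.00231 with an adjusted p of 0.982.

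Gene by gene, sorted HSC were called more variable than dissected cells for 2 of 1052 genes, 0.19%, and less variable for 106, 10.1% (limma on the log2 ratio per library, adjusted p under 0.05). At an unadjusted p under 0.05 there were 15 and 219. The 106 became 23 with libraries weighted equally, 31 among genes of like level, 24 at 500 tags and 27 against dissected cells with erythroid transcripts. Cox7a2 was higher, with a ratio of 1.42 in sorted HSC and 0.884 in dissected cells, a log2 difference of 0.68 ± 0.16 (SE) with a limma adjusted p of 0.00385, and Cdc37, a kinase chaperone, had 1.3 against 0.967, a difference of 0.43 with a limma adjusted p of 0.0172. Neither call was stable: over the settings that tested it Cox7a2 was called in 5 of 13, with differences of 0.16 to 0.80 and limma adjusted p-values up to 0.723, and Cdc37 in 3 of 10, with differences of -0.02 to 0.47 and limma adjusted p-values up to 0.935. Another thinning called 0 genes higher, with 10 at an unadjusted p under 0.05. Lineage markers were among the largest falls: Lyz1, a lysozyme of myeloid cells, had 0.909 in sorted HSC and 7.71 in dissected cells, and Prtn3, a neutrophil granule protease, 0.903 and 5.22. Both also differed in level, at 0.220 tags per cell in sorted HSC and 3.83 in dissected cells for Lyz1, and 0.145 and 0.876 for Prtn3. H3f3a, a replacement histone found in all cells, had 1.01 in sorted HSC and 3.21 in dissected cells, a log2 difference of -1.76 ± 0.18 (SE) with a limma adjusted p of 5.76e-09. Gpx1, a peroxide-reducing enzyme, had 1.10 against 4.48. These 2 genes, with Prtn3 and Cd24a, were called in every setting that tested them. The setting with genes of like level, within 2-fold, tested none of them, because their levels differed by more. H3f3a averaged 1.724 tags per cell in sorted HSC and 5.293 in dissected cells. Gpx1 averaged 1.601 and 5.826, and Cd24a 0.284 and 2.969. Whether their variability differed at equal level was therefore not tested. Lyz1, Tmsb4x, Car2 and Prdx2 were not called against cells with erythroid transcripts, where the difference of Lyz1 was 0.03.

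For most genes that led the sorted HSC, the difference in variability from dissected cells did not pass the test. Tuba1b had a ratio of 1.96 in sorted HSC and 2.24 in dissected cells, a log2 difference of -0.27 ± 0.21 (SE) with a limma adjusted p of 0.488. Stmn1 differed by 0.09 with a limma adjusted p of 0.833, Tubb5 by -0.32 with 0.304 and H2afz by -0.49 with 0.0539. Txnip had 1.53 in sorted HSC and 1.09 in dissected cells, a log2 difference of 0.43 with a limma adjusted p of 0.165. Ptma was lower, at 1.61 in sorted HSC and 4.17 in dissected cells, a log2 difference of -1.34 ± 0.24 (SE) with a limma adjusted p of 0.000171. These genes were picked for high ratios in sorted HSC, which bears on each such difference. B2m, H2-K1 and H2-D1 were less variable in sorted HSC, at 1.14, 0.974 and 1.01 against 1.77, 1.69 and 1.46, with limma adjusted p-values of 0.0132, 0.0133 and 0.0418. Of the lists, 38 of 73 ribosomal genes, 8 of 19 actin genes and 3 of 8 MHC and interferon genes were less variable and 0 were more variable. Over all tested genes 106 of 1052, 10.1%, were less variable. The share was larger among abundant genes. At an unadjusted limma p under 0.05, 119 of 236 genes with a mean of at least 0.3 tags were lower, against 219 of all 1052. The lists were not set against genes of their own level.

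The levels of these lists were set against dissected libraries on transcripts summed per library. Of 5131 genes tested with edgeR, 752 (14.7%) were higher in sorted HSC and 863 (16.8%) lower, and the median log2 fold change was -0.04, which library totals shifted to 0.27 and DESeq2 size factors to 0.15. In bulk sums of this kind fewer cells of a type and less RNA per cell cannot be told apart. Of the mitosis genes 31 of 34 fell and 0 rose, with a median log2 fold change of -2.57, and 29 or 30 fell without any 1 sorted library. H2afz gave 902, 924 and 1122 CPM (a gene's share of the library's summed transcripts, scaled to a common total) in sorted replicates 3, 4 and 5, against 1394, 2313 and 3757 as the lowest, median and highest of dissected libraries. Its log2 fold change was -1.39 ± 0.28 (approximate SE) with an edgeR adjusted p of 0.000277, and the groups did not overlap. Tuba1b averaged 1600 ± 260 CPM in sorted HSC and 1888 ± 504 CPM in dissected libraries (SD, n = 3 and 15), with an edgeR adjusted p of 0.265, and Stmn1 867 ± 132 and 686 ± 147 CPM, with an edgeR adjusted p of 0.680. Both thus varied between sorted cells at a summed level that did not pass the test.

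Of the replication genes 9 of 25 fell and 0 rose, with a median of -0.68. Without replicates 3, 4 and 5 in turn, 6 of 26, 5 of 27 and 10 of 27 fell, and 1 rose without replicate 4. Under DESeq2 size factors 1 rose as well. Pcna gave 382, 205 and 400 CPM in sorted replicates 3, 4 and 5, against 259.9, 612 and 1036 as the lowest, median and highest of dissected libraries, a log2 fold change of -1.12 with an edgeR adjusted p of 0.0173 and with overlap. Dut, Dnmt1 and Mcm6 did not pass, at log2 fold changes of -0.40, -0.14 and 0.30.

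The antigen presentation and interferon list was higher in sorted HSC for 15 of 22 genes and lower for 1, with a median of 1.10, and 8 to 14 were higher without 1 sorted library. H2-K1 gave 2597, 2258 and 1944 CPM in sorted replicates 3, 4 and 5, against 115, 428 and 525 as the lowest, median and highest of dissected libraries, a log2 fold change of 2.41 ± 0.28 (approximate SE) with an edgeR adjusted p of 1.83e-07. B2m gave 3519, 1685 and 2889 CPM against 932, 1215 and 2104 in dissected libraries, and rose by 0.85 on the log2 scale with an edgeR adjusted p of 0.0138.

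Stem cell transcription factors were higher for 15 of 20 genes and lower for 0, with a median of 1.65, and 10 to 16 were higher without 1 sorted library. Lmo2 gave 1351, 821 and 1272 CPM in sorted replicates 3, 4 and 5, against 198, 351 and 656 as the lowest, median and highest of dissected libraries, and rose by 1.35 on the log2 scale with an edgeR adjusted p of 0.00043. The quiescence list was mixed, with 3 of 14 genes higher and 8 lower and a median of -1.69. Txnip rose, at 1590, 676 and 955 CPM in sorted replicates 3, 4 and 5, against 61.0, 121 and 272 as the lowest, median and highest of dissected libraries, a log2 fold change of 2.75 ± 0.32 (approximate SE) with an edgeR adjusted p of 2.01e-07. Btg1, an antiproliferative factor named after its values were seen, fell, at 79.7, 42.8 and 94.4 CPM against 86.6, 169 and 323 CPM, with an edgeR adjusted p of 0.00578. Ribosomal proteins were higher for 46 of 74 genes and lower for 0, with a median of 0.80, but for 19, 26 and 39 without replicates 3, 4 and 5 and for 25 with all libraries. Of the 12 megakaryocyte markers 1 was higher and 0 were lower, no larger a share than among all genes, and DESeq2 called 0 higher and 2 lower. Tubulins, Ifitm genes, MHC class I genes and ribosomal proteins have near-identical copies elsewhere in the genome, so their reads may be split or shared.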

How the data were processed

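The table deposited by the authors holds estimated counts of transcripts per gene and cell, which are whole numbers of distinct tags corrected for tags used more than once among 256. The submitters' processing notes name BWA 0.6.2-r126 and mm10, and how reads became this table is otherwise not stated in the labels. Columns with at least 1000 transcripts were kept, and libraries with at least 10 such cells were used. The correction was undone to whole tags, and each cell was thinned to 1000 tags without replacement, leaving out 26 dissected cells with fewer and 0 sorted cells. No cell name occurred in more than 1 library, no doublet caller was run, and 0 columns were unmapped.

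Variance-to-mean ratios were computed per library over cells. Their log2 values were compared with limma 3.58.1 (weights of cells minus 1, genes with a mean of at least 0.1 tags). Deposited counts summed per library and rounded were tested with edgeR 4.0.16 (quasi-likelihood, TMM, filterByExpr) and, as an alternative, DESeq2 1.42.0, in R 4.3.3, all with Benjamini-Hochberg adjustment at 0.05. CPM are a gene's share of a library's summed transcripts, scaled to a common total, and the approximate SE is the log2 fold change over the root of the F statistic. Single values per library were tested by exact permutation (scipy 1.17.1). In simulated data edgeR recovered 47.5% of 200 genes changed 4-fold in the level comparison (4732 genes, 1.04% false calls), and limma 99.5% of 187 changed 2.5-fold in the variability comparison (997 genes, 7.92% false calls). The variability simulation gave dissected cells counting error only and made the changed genes more variable in sorted cells. The deposited dissected libraries had median ratios of 1.3 to 1.87, so the 99.5% does not measure recovery in these data.

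The members and lists were chosen with earlier results of these data known. Named were the 20 genes with the highest lowest ratio over sorted libraries (mean of at least 0.2 tags, 5 cells with a tag), the 5 least variable, the 6 markers, leading members of lists, the 8 largest variability differences each way and the 3 genes most like each of the first 6; predicted genes were left out of naming. The joint ratio level of 1.5, the counts of cells with 5 or 10 tags and the 2% and 5% shares that define erythroid and neutrophil-line cells were chosen after values were seen. Gene positions are from GENCODE vM21 on GRCm38. A few genes that the naming rule or a list covers are not reported here.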

Additional observations from a re-analysis of the deposited data

Results flagged for a closer look

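Wells of the sorted libraries with under 1000 transcripts, which entered no comparison, still carried stem cell marker tags. In sorted replicates 3 to 5 the 6 markers gave 7.05 tags per 1000, 224 of 31783 tags in 42 wells. In sorted replicate 1 they gave 3.17 per 1000, 18 of 5684 tags in 82 wells. Dissected wells under the same minimum gave 0.158 per 1000, 41 of 259047 tags in 839 wells. The sorted wells were thus above the level of the dissected ones in both sets. The difference was not tested, and Ifitm1 supplied 8 tags in sorted replicate 1 and 91 in sorted replicates 3 to 5, against 30 in dissected wells.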

How the results depend on the processing

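The 4 library values kept their direction under every alternative run. Single genes did not all do so: the variability difference of Cdc37 went down to -0.02 and that of Lyz1 up to 0.03, neither of them called there. Of the single ratios under an alternative, 7 of 200 for genes and 20 of 180 for lists were below 1. Genes called higher in level by edgeR numbered 752, but 1176 with library totals, 1568 with no low-count filter, 408 with all libraries, and 432 to 763 with a sorted library left out, the lowest without replicate 3. Genes called lower numbered 863, but 544 with a minimum of 2000 transcripts, and 633 to 716 with a sorted library left out. DESeq2 called 1059 higher and 824 lower. Genes called more variable by limma numbered 2, but 0 with a mean of at least 0.3 tags, equal weights, 2000 tags per cell, another random seed or at least 30 cells per library (1, 7, 14, 10 and 10 at an unadjusted p under 0.05), 4 at 500 tags, 5 without the deepest 5% of cells, and 2 to 4 with a sorted library left out, the highest without replicate 4. Genes called less variable numbered 106, but 23 with equal weights, 31 among genes of like level, 24 at 500 tags, 27 against dissected cells with erythroid transcripts, and 60 to 77 with a sorted library left out, with 60 without replicate 3 and 61 without replicate 5. Against those erythroid cells the exact permutation test gave a correlation difference of 0.0358 (adjusted p 0.261) and an SD difference of -0.00231 (adjusted p 0.982). With a sorted library left out the SD difference ran from -0.413 to -0.313, the last without replicate 4 and past no threshold. Of the 20 named genes, 3 were again among the first 20 at 500 tags, 9 with another random seed, 10 with scaling in place of thinning, 9 without the deepest 5% of cells, 4 with a minimum of 2000 transcripts, 11 in the mean of 20 thinnings, and 8 to 11 with a sorted library left out. At 500 tags 2 lists, replication and mitosis, were above 1.5 in every sorted library in place of 4, and 4 to 5 were with a sorted library left out. The cause of these shifts was not tested, except that fewer genes enter under stricter minimums. By more than 1 SD moved 74 of these gene ratios and 42 of the list ratios. The mean of 20 thinnings, the erythroid cells, the removal of log depth and the shortened lists were chosen after seeing the data. No paired analysis was possible because replicate numbers were given in accession order and pair nothing. At 1000 tags per cell ratios of genes near 0.1 tags, such as Cdc37 and Prtn3, rest on few counts.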

Other observations

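Wells under the minimum aside, the deepest sorted cell held 6602 transcripts and the most abundant gene of any thinned sorted cell took 22 of its 1000 tags. The cell with the highest antigen presentation and interferon sum held 36 tags of that list and 1 mitosis tag in replicate 5, 27 and 1 in replicate 4, and 30 and 20 in replicate 3.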
